A study of Mus musculus with 16 samples.

Results

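The genes described here are negative-feedback regulators of the extracellular signal-regulated kinase (ERK) pathway, namely 4 dual-specificity phosphatases (Dusp1, Dusp4, Dusp5 and Dusp6) and 3 Sprouty genes (Spry1, Spry2 and Spry4). They were chosen by name, and all 7 were among the 12172 genes measured above a signal filter, where they were represented by 11 probe sets. Expression was measured on Affymetrix mouse arrays in cultured ovarian follicles from C57BL/6Tac mice, 8 weeks old per the sample labels, with no genetic change named. There were 4 groups of 4 arrays each: 50 ng/ml recombinant anti-Müllerian hormone (AMH) for 24 h, no AMH for 24 h, 50 ng/ml AMH for 12 h and no AMH for 12 h. The medium of all 4 groups held gonadotropins, FSH at 80 IU/L and LH at 10 IU/L, so the controls were gonadotropin-treated and no uncultured follicle was analysed here. Each array held the RNA of 6 to 9 follicles, preantral to small antral, out of the pooled follicles of 8 mice, and a pair of AMH and control arrays shared its pool. The comparisons address how transcripts differ with AMH at each time, and how they differ between 24 h and 12 h of culture within each arm.

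AMH belongs to the TGF-β superfamily and is made by granulosa cells while follicles grow. ERK is activated when growth factors bind receptor tyrosine kinases and the signal passes through RAS, RAF and MEK, and in the ovary EGF-like ligands released after LH stimulation activate it in granulosa and cumulus cells. Dual-specificity phosphatases remove the activating phosphates from MAP kinases, while Sprouty proteins act upstream, between receptor and RAF. Transcription of many of these genes is itself raised by ERK activity, which closes a negative feedback loop and makes their transcripts widely used readouts of the pathway.

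The members lie on different chromosomes in the GRCm38.p6 annotation. Dusp1 is at chr17:26505591-26508472, Dusp4 at chr8:34807610-34819894, Dusp5 at chr19:53529145-53541809 and Dusp6 at chr10:99263231-99267489. Spry1 is at chr3:37639947-37644599 and Spry2 at chr14:105891947-105896819. RefSeq promoter entries were matched for 5 of the 7 genes, and Dusp4 and Spry4 had none in the table used. The 250 bases before the annotated start are shown for Dusp1 and Dusp5, the phosphatases with the smallest and the largest change with time, because they held different signal-responsive motifs.
Dusp1 upstream region, chr17:26508473-26508722, minus strand, capitals mark the cAMP response element and a shorter copy of its core: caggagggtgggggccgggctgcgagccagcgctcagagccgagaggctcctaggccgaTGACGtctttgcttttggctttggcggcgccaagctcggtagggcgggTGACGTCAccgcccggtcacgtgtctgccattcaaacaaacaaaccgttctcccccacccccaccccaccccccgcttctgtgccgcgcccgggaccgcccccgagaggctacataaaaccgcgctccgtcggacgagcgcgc
Dusp5 upstream region, chr19:53528895-53529144, plus strand, capitals mark 2 adjacent CArG boxes and a core of the cAMP response element read on the other strand: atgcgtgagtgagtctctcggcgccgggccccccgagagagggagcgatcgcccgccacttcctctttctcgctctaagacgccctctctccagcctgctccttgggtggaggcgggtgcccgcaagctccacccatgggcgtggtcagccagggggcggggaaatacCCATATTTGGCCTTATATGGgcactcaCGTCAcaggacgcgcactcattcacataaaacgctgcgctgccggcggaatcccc

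Both strands of these 250-base windows were searched for the full cAMP response element (CRE, TGACGTCA), its core TGACG, the CArG box by name, the ETS motif CCGGAA and TATAAA. Dusp1 held a CRE 143 to 136 bases before the start, which overlaps 2 matches of the core, and another core 191 to 187 bases before it. Dusp5 held its CArG boxes, to which serum response factor binds, 82 to 73 and 72 to 63 bases before the start, and a core 55 to 51 bases before it. Across 32851 RefSeq promoter windows of the same length, 1.55% held the CRE, 17.8% the core, 1.47% a CArG box, 12% the ETS motif and 12.4% TATAAA. None of these letters was found in the windows of Dusp6, Spry1 or Spry2.

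The deposited signals were already scaled, with a trimmed mean of 150.001 on all 16 arrays, and the number of arrays limits the precision. The median signal per array lay between 27.8 and 40.2, and log2 signals of arrays in the same group correlated at 0.955 to 0.974 across all probe sets, which are not independent replicates. Follicle markers were present at unequal levels. The granulosa markers Amhr2 and Foxl2 were at or above a signal of 529.5 and the oocyte marker Zp3 at or above 367 on every array. Other markers of these cells were low on some arrays. The granulosa marker Fshr had signals between 4.44 and 277, and the oocyte marker Figla between 11.2 and 53.8. The transcript of Amh itself had signals between 3.82 and 53.9. The mean log2 signal of 15 oocyte genes ranged over 4.96-fold between arrays, and its highest array in each group was replicate 1 of AMH at 24 h, replicate 4 of the control at 24 h and replicate 3 of both arms at 12 h. Changes below are differences of log2(signal + 1.46) fitted with limma, with their standard error (SE), and p-values adjusted by the Benjamini-Hochberg method over all 12172 genes. A gene is called where the adjusted p is under 0.05.

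**Figure D1:**
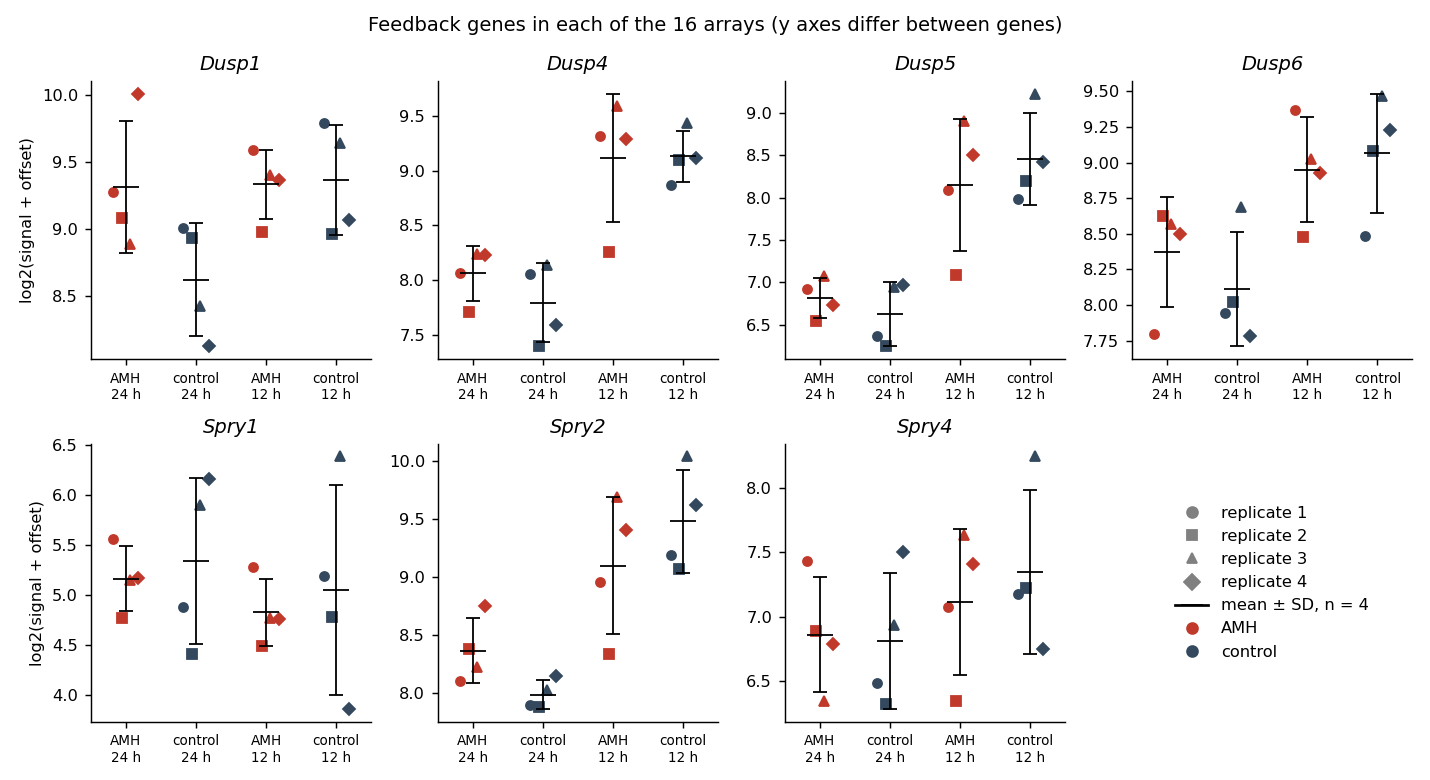
Each panel plots log2(signal + 1.46) of a feedback gene on the y axis for the 4 arrays of each group, with symbols for replicates and bars for the mean ± SD (n = 4). The 24 h arrays of Dusp4 and Dusp5 lie below the 12 h arrays of the same arm in both arms, while the groups of Spry1 and Spry4 overlap.

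Between 24 h and 12 h of culture, Dusp5 and Dusp4 were lower at 24 h in both arms, and Dusp6 and Spry2 were also called lower in control follicles. In AMH-treated follicles, 2 of the 7 feedback genes were called lower at 24 h, Dusp5 by 2.51-fold and Dusp4 by 2.08-fold, and none was called higher. Of all 12172 genes, 3.94% were called lower, 4.34% higher and 8.28% in either direction in that arm. The 24 h and 12 h arrays of the AMH arm did not overlap in the same 2 members, as in 7.65% of all genes in the downward direction. In control follicles, 4 of the 7 were called lower, Dusp5 by 3.55-fold, Spry2 by 2.82-fold, Dusp4 by 2.52-fold and Dusp6 by 1.94-fold, and none was called higher. In the control arm 9.19% of all genes were called lower, 9.96% higher and 19.1% in either direction. In 3 members, Dusp4, Dusp5 and Spry2, all 24 h control arrays lay below all 12 h control arrays, as they did in 10.9% of all genes. The median change of the 7 genes was -0.58 with AMH, beside -0.02 for all genes, and -0.96 in controls, beside -0.01 for all genes. Dusp4 and Dusp5 were called lower in both arms, which was so for 3.02% of all genes. In whole follicles, fewer cells of a type and less RNA per cell cannot be told apart.

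Dusp5 encodes a nuclear phosphatase that acts on ERK and little on the other MAP kinases. Its signals at 24 h were 120, 91.5, 134 and 105 in AMH-treated follicles and 80.9, 74.3, 122 and 123 in control follicles. At 12 h they were 271, 135, 477 and 360 in AMH-treated follicles and 251, 291, 597 and 341 in control follicles. All 8 arrays at 24 h were below all 8 arrays at 12 h, though the lowest 12 h array, AMH replicate 2, came within a few units of the highest at 24 h. The change with time was -1.33 (SE 0.33, adjusted p 0.0211) in AMH-treated follicles and -1.83 (SE 0.33, adjusted p 0.00149) in control follicles.

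Dusp4 encodes a nuclear phosphatase for ERK and JNK. Signals at 24 h were 266, 207, 301 and 299 with AMH and 265, 167, 280 and 192 in controls. At 12 h they were 637, 305, 771 and 625 with AMH and 466, 547, 692 and 554 in controls. Here too no 24 h array reached the level of any 12 h array, and AMH replicate 2 was again the lowest array at 12 h. The change with time was -1.05 (SE 0.24, adjusted p 0.0143) with AMH and -1.34 (SE 0.24, adjusted p 0.00164) in controls.

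The calls of both genes in the AMH arm were lost when certain arrays were left out, and those in the control arm were not. Without AMH 12 h replicate 3, Dusp4 changed by -0.90 (adjusted p 0.0552) and Dusp5 by -1.08 (adjusted p 0.0731) in AMH-treated follicles. Leaving out AMH 24 h replicate 2 gave -0.94 for Dusp4 (adjusted p 0.0512) and -1.24 for Dusp5 (adjusted p 0.0640), and leaving out AMH 12 h replicate 4 gave -1.21 for Dusp5 (adjusted p 0.0642). In control follicles Dusp4, Dusp5 and Spry2 were called under all 20 alternative settings run, each array left out in turn included.

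Dusp6 encodes a cytoplasmic phosphatase selective for ERK. At 24 h its signals were 221, 393, 379 and 361 with AMH and 245, 258, 412 and 219 in controls. At 12 h they were 662, 355, 520 and 484 with AMH and 357, 540, 707 and 598 in controls. The 12 h and 24 h arrays overlapped in both arms, because replicate 2 of AMH and replicate 1 of the control were low at 12 h and replicate 3 of the control was high at 24 h. The change of Dusp6 with time was -0.58 with AMH (SE 0.25, adjusted p 0.167) and -0.96 in control follicles (SE 0.25, adjusted p 0.0140). With array weights, which let arrays far from their group count for less, the control change was -0.46 (adjusted p 0.115).

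Dusp1 encodes a nuclear phosphatase that acts on JNK and p38 as well as ERK and is an immediate-early gene. Signals at 24 h were 617, 541, 471 and 1029 with AMH and 513, 487, 342 and 277 in controls. Those at 12 h were 769, 502, 674 and 658 with AMH and 883, 496, 796 and 535 in controls. Controls at 24 h held the 2 lowest arrays, and AMH replicate 4 at 24 h was the highest array of all 16. Between 24 h and 12 h Dusp1 differed by -0.02 with AMH (SE 0.25, adjusted p 0.975) and by -0.74 in controls (SE 0.25, adjusted p 0.0507), just outside the threshold. Under 6 of 20 alternative settings the control change was called, including leaving out control 12 h replicate 2 (-0.88, adjusted p 0.0381), control 24 h replicate 1 (-0.87, adjusted p 0.0418) or control 24 h replicate 2 (-0.85, adjusted p 0.0488).

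Spry2 encodes a Sprouty protein induced by receptor tyrosine kinase signals. The probe set of higher mean gave signals at 24 h of 272, 331, 298 and 429 with AMH and 237, 233, 259 and 282 in controls. It gave signals at 12 h of 496, 321, 823 and 676 with AMH and 582, 534, 1050 and 785 in controls. In the AMH arm replicate 2 at 12 h lay within the 24 h range, while all control arrays at 24 h were below all control arrays at 12 h. The change with time was -0.73 with AMH (SE 0.25, adjusted p 0.0832) and -1.49 in controls (SE 0.25, adjusted p 0.00095). Without AMH 12 h replicate 2 the change with AMH was -0.99 and was called (adjusted p 0.0144).

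The second Spry2 probe set separated the times in both arms. Its signals at 24 h were 174, 167, 185 and 165 with AMH and 136, 153, 156 and 163 in controls. At 12 h they were 377, 268, 425 and 361 with AMH and 460, 320, 610 and 346 in controls. When each of 23238 probe sets was tested on its own, it changed with time by -1.02 with AMH (SE 0.18, adjusted p 0.00287) and by -1.46 in controls (SE 0.18, adjusted p 0.000111). In that fit 2.97% of probe sets were called lower with AMH and 7.04% in controls. The 2 probe sets of Spry2 therefore give different calls in AMH-treated follicles and the same call in control follicles.

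Spry4, on chromosome 18, and Spry1 encode further Sprouty proteins, and neither was called in either arm. Spry4 signals at 24 h were 171, 117, 79.7 and 109 with AMH and 87.9, 78.6, 121 and 179 in controls, and its signals at 12 h were 133, 79.6, 197 and 169 with AMH and 143, 148, 301 and 106 in controls. The change with time was -0.25 with AMH (SE 0.35, adjusted p 0.717) and -0.54 in controls (SE 0.35, adjusted p 0.299). The other 3 Spry4 probe sets gave -0.07, -0.16 and -0.47 with AMH and -0.48, -0.50 and -0.84 in controls, and none was called. Spry1 lay near the filter signal of 16.6 on some arrays, with signals at 24 h of 45.8, 25.8, 34.1 and 34.4 with AMH and 28.0, 19.7, 58.1 and 70.0 in controls. At 12 h Spry1 gave 37.4, 20.9, 25.7 and 25.7 with AMH and 35.0, 25.9, 82.2 and 13.0 in controls. Its change with time was 0.34 with AMH (SE 0.46, adjusted p 0.715) and 0.28 in controls (SE 0.46, adjusted p 0.703), so that it was the only member above 0 in either arm, although without control 12 h replicate 4 the control value was -0.11.

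**Figure D2:**
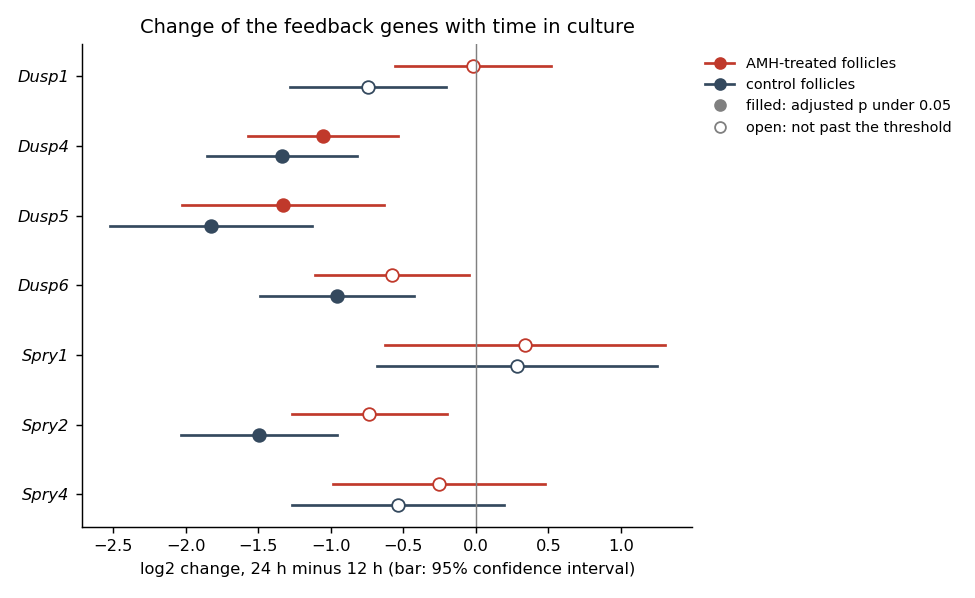
The x axis gives the log2 change between 24 h and 12 h for each feedback gene, in AMH-treated and in control follicles, with 95% confidence intervals from the limma fit. Filled points have an adjusted p under 0.05: Dusp4 and Dusp5 in both arms, and Dusp6 and Spry2 in control follicles.

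The arrangement of the 4 group means shows how large these steps were beside the spread. For Dusp5 the mean log2 signals were 6.82 ± 0.23 for AMH at 24 h, 6.63 ± 0.38 for the control at 24 h, 8.15 ± 0.78 for AMH at 12 h, and 8.45 ± 0.54 for the control at 12 h (SD, n = 4 each). For Dusp4 they were 8.06 ± 0.25 for AMH at 24 h, 7.80 ± 0.36 for the control at 24 h, 9.12 ± 0.59 for AMH at 12 h, and 9.13 ± 0.23 for the control at 12 h. In both genes the step between AMH at 24 h and AMH at 12 h exceeded the sum of the 2 SDs, and the neighbouring arms at the same time did not differ beyond it. The means of Spry2 were 8.36 ± 0.28 for AMH at 24 h, 7.98 ± 0.13 for the control at 24 h, 9.10 ± 0.59 for AMH at 12 h, and 9.48 ± 0.44 for the control at 12 h. For this probe set of Spry2, and for Dusp1, Dusp6, Spry1 and the Spry4 probe set of highest mean, no neighbouring groups in the order of means were that far apart. The second Spry2 probe set, at 7.45 ± 0.07 for AMH at 24 h, 7.26 ± 0.11 for the control at 24 h and 8.47 ± 0.28 for AMH at 12 h, was separated by more than the sum of the SDs both between the arms at 24 h and between the times in the AMH arm.

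AMH compared with control gave no called member at either time. At 12 h, 0 of the 7 genes passed the limma test, as did 0 of all 12172 genes (0%), and 1 member, Spry2, had an unadjusted p under 0.05, beside 6.47% of all genes. At 24 h, 0 of 7 passed beside 0.0164% of all genes, and 2 members, Dusp1 and Spry2, had an unadjusted p under 0.05 beside 4.07% of all genes. All 7 differences were below 0 at 12 h, with a median of -0.23 beside 0.01 for all genes, and 6 of 7 were above 0 at 24 h, with a median of 0.26 beside 0.01. With AMH and control averaged over both times, 0 of 7 and 0% of all genes passed, no member had an unadjusted p under 0.05 beside 4.81% of all genes, and the differences lay between -0.20 for Spry1 and 0.33 for Dusp1.

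Spry2, read from its probe set of higher mean, was the only member whose pairs all differed one way at each time. At 24 h the AMH array was higher in 4 of 4 pairs, by 0.20, 0.50, 0.20 and 0.60, and at 12 h it was lower in 4 of 4 pairs, with differences of -0.23, -0.73, -0.35 and -0.22. Of all genes, 5.95% were higher in 4 of 4 pairs at 24 h and 7.71% were lower in 4 of 4 pairs at 12 h. The mean difference was 0.38 at 24 h (SE 0.12, unadjusted p 0.0107, adjusted p 0.908) and -0.38 at 12 h (SE 0.12, unadjusted p 0.00996, adjusted p 0.621). The AMH effect at 24 h minus that at 12 h, which is also the difference between the arms in their change with time, was 0.76 (95% interval 0.38 to 1.14, unadjusted p 0.00115, adjusted p 0.333). Over all alternative settings run, that value lay between 0.60 and 0.91 and its adjusted p between 0.114 and 0.999. For the second Spry2 probe set the AMH and control arrays did not overlap at 24 h, but its mean difference was only 0.19 (SE 0.13, adjusted p 1.00). Such a lack of overlap in the upward direction was found for 1.46% of genes, each read from its probe set of highest mean. The share over all probe sets was not computed. At 12 h this probe set was lower with AMH in 3 of 4 pairs, with differences of -0.29, -0.25, -0.52 and 0.058 and a mean of -0.25 (SE 0.13, unadjusted p 0.0732, adjusted p 0.797).

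Dusp1 had the largest difference between AMH and control at 24 h among the members, and it leaned on a single pair. The AMH array was higher by 0.27, 0.15, 0.46 and 1.89 in pairs 1 to 4, with a mean of 0.69 (SE 0.24, 95% interval 0.17 to 1.22, unadjusted p 0.0145, adjusted p 0.954). Without replicate 4 the difference was 0.29. The control array of pair 4 had a mean log2 signal of oocyte genes of 9.04, against 7.57 for its AMH array. The part of that in the difference was not tested. At 12 h the difference was -0.03 (SE 0.24, adjusted p 0.995). The AMH effect at 24 h minus that at 12 h was 0.72 (SE 0.34, adjusted p 0.879).

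The remaining phosphatases differed little between the arms relative to their spread. Dusp4 was higher with AMH in 4 of 4 pairs at 24 h, with a mean of 0.27 (95% interval -0.16 to 0.69), and its difference at 12 h was -0.02 (95% interval -0.44 to 0.41). Dusp5 differed by 0.19 at 24 h (95% interval -0.26 to 0.64) and by -0.31 at 12 h (95% interval -0.76 to 0.14). Dusp6 differed by 0.26 at 24 h (95% interval -0.26 to 0.78) and by -0.11 at 12 h (95% interval -0.63 to 0.40). Pair 2 at 12 h held the lowest differences of Dusp4 and Dusp5, -0.84 and -1.10, and without it the 12 h value of Dusp4 was 0.26.

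Of the other Sprouty genes, Spry4 differed by 0.05 at 24 h (95% interval -0.63 to 0.73) and by -0.23 at 12 h (95% interval -0.91 to 0.45). Spry1 differed by -0.17 at 24 h (95% interval -1.06 to 0.71) and by -0.23 at 12 h (95% interval -1.11 to 0.66). Each of these intervals spans more than 1 log2 unit. For all 7 members the AMH effect at 24 h minus that at 12 h was above 0, between 0.05 for Spry1 and 0.76 for Spry2 with a median of 0.38, yet 0 of 7 and 0% of all genes passed, and only Spry2 had an unadjusted p under 0.05, beside 5.64% of all genes.

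Markers of some cell types outside the granulosa layer also lay mostly to one side of 0 between the arms, and those of others did not. At 24 h, 9 of 9 endothelial markers (median 0.35), 9 of 9 immune markers (median 0.73) and 10 of 10 stroma and smooth muscle markers (median 0.39) were above 0 for AMH minus control. Of them 1, the stromal gene Dpt, was called (adjusted p 0.0480). That call was lost without the filter, with quantile normalization, with every probe set tested and with the mean of probe sets. It was also lost without the replicate block, with only the arrays compared in the fit, and without replicate 2, 3 or 4. At 12 h, 8 of 9 endothelial markers (median -0.45) and 7 of 8 surface epithelium markers (median -0.28) were below 0, against 2 of 9 immune markers and 4 of 10 stromal markers. The AMH effect at 24 h minus that at 12 h was above 0 for 9 of 9 endothelial markers (median 0.70) and 9 of 9 immune markers (median 0.61). Both medians were larger than the 0.38 of the feedback genes. Smaller ones were found for stroma (0.06, 5 of 10 above 0) and surface epithelium (0.16, 4 of 8). Medians below 0 were found for theca (-0.19, 1 of 4 above 0), granulosa (-0.10, 3 of 10) and oocyte genes (-0.08, 7 of 15). The summed signal of the endothelial markers lay between 927 and 1636 for AMH at 24 h, 759 and 1239 for the control at 24 h, 808 and 2337 for AMH at 12 h, and 996 and 3024 for the control at 12 h. That of the immune markers lay between 537 and 1519 for AMH at 24 h, 409 and 784 for the control at 24 h, 495 and 1429 for AMH at 12 h, and 724 and 1788 for the control at 12 h. Among granulosa markers, 6 of 10 were above 0 at 24 h and 7 of 10 at 12 h, and among oocyte genes 14 of 15 were below 0 at each time. Of the theca markers 2 of 4 were above 0 at each time, and of the surface epithelium markers 4 of 8 were at 24 h. The part of these shifts in the differences of the feedback genes was not tested.

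**Figure D3:**
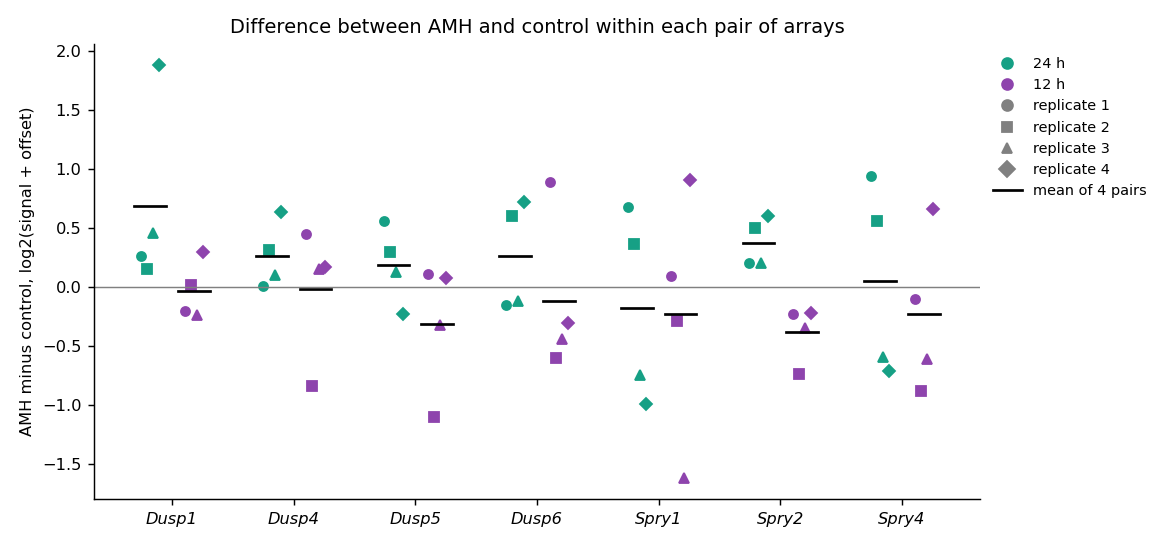
The y axis gives AMH minus control in log2(signal + 1.46) for each pair of arrays and each feedback gene, with 24 h left of 12 h, symbols for replicates and a line at the mean of 4 pairs. For Spry2 all 4 pairs lie above 0 at 24 h and below 0 at 12 h, and the highest point of Dusp1 is pair 4 at 24 h, at 1.89.

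Other genes of the pathway were taken from lists of ligands, receptors, kinases, inhibitors and ERK-driven transcripts. Among 12 growth factor ligands, 2 were called lower at 24 h in AMH-treated follicles, and 3 lower and 1 higher in control follicles. The EGF-like ligand betacellulin (Btc) changed by -2.25 with AMH (SE 0.28, adjusted p 0.000264) and by -2.71 in controls (SE 0.28, adjusted p 2.5e-05). Epiregulin (Ereg), another EGF-like ligand, changed by -1.81 with AMH (adjusted p 0.0305) and by -2.53 in controls (adjusted p 0.0023). Its AMH call was lost without AMH 24 h replicate 1, 2 or 4 or AMH 12 h replicate 3 or 4 (adjusted p 0.0610 to 0.104), and without the oocyte-rich 24 h arrays (adjusted p 0.0729). Heparin-binding EGF-like growth factor (Hbegf) changed by -1.23 in controls (adjusted p 0.0329), a call lost without control 24 h replicate 1 or 2 or control 12 h replicate 3 or 4 (adjusted p 0.0525 to 0.103). Kit ligand (Kitl), which granulosa cells supply to the oocyte, changed by 0.54 in controls (adjusted p 0.0349), a call lost without control 24 h replicate 2, 3 or 4 or control 12 h replicate 2 or 4 (adjusted p 0.0562 to 0.108), without the oocyte-rich 24 h arrays (adjusted p 0.0658) and with centring (0.36, adjusted p 0.165).

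Among 13 receptor tyrosine kinases, none was called in AMH-treated follicles and 3 fibroblast growth factor receptors were lower at 24 h in control follicles. With AMH the smallest p belonged to Pdgfra, a platelet-derived growth factor receptor that is also a stromal marker, at 0.75 (adjusted p 0.0700). Pdgfra was called with the replicate block (adjusted p 0.0129), with array weights (adjusted p 0.0278) and with the oocyte covariate (adjusted p 0.0486). In controls Fgfr1 changed by -1.30 (adjusted p 0.00329), Fgfr2 by -0.75 (adjusted p 0.0101) and Fgfr4 by -0.87 (adjusted p 0.0389). Fgfr4 lost its call without any control array other than 12 h replicate 1 (adjusted p 0.0515 to 0.120), and under 4 other settings (adjusted p 0.0581 to 0.0863). Of 15 measured members of the RAS-RAF-MEK-ERK cascade, the adaptor Gab1 was the only one called, higher at 24 h by 0.49 with AMH (adjusted p 0.0491) and by 0.60 in controls (adjusted p 0.0103). The AMH call of Gab1 was lost under 13 of 20 alternative settings, among them leaving out replicate 2, 3 or 4 at either time (adjusted p 0.0870 to 0.143), and its control call was lost when arrays were centred on their medians (0.42, adjusted p 0.123). The median change of the cascade was -0.03 with AMH and -0.04 in controls. Of 7 JNK and p38 kinases none was called with AMH, where Mapk10 changed by 1.42 (adjusted p 0.0760, or 0.0327 without AMH 12 h replicate 1 and 0.0145 with array weights). In controls Mapk10 was higher by 2.79 (adjusted p 0.00108) and Mapk13 by 1.26 (adjusted p 0.00716).

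The other feedback inhibitors behaved unevenly. Of 4 further measured inhibitors of the pathway, Spred1, Spred2, Spred3 and Il17rd, 1 was called lower at 24 h with AMH and 2 in controls. Spred2 changed by -0.68 with AMH (SE 0.16, adjusted p 0.0171) and by -1.004 in controls (SE 0.16, adjusted p 0.000697). The AMH call of Spred2 was lost without AMH 24 h replicate 2 (adjusted p 0.0581) or AMH 12 h replicate 3 (adjusted p 0.0633). Spred3 changed by -1.06 in controls (SE 0.33, adjusted p 0.0360), a call lost without control 24 h replicate 1, 2 or 3 or control 12 h replicate 2, 3 or 4 (adjusted p 0.0566 to 0.0932) and without the filter (adjusted p 0.0537). Of 6 other MAP kinase phosphatases only Dusp9, a cytoplasmic phosphatase, was called lower with AMH, at -1.35 (SE 0.34, adjusted p 0.0219). That call was lost without AMH 24 h replicate 2 or 4 or AMH 12 h replicate 3 or 4 (adjusted p 0.0557 to 0.0688) and with only the arrays compared in the fit (adjusted p 0.0637). None of the 6 was called in controls, where Dusp9 changed by -0.87 (adjusted p 0.0796). Dusp9 in controls was called with quantile normalization (-1.10, adjusted p 0.0304), with centring (-1.05, adjusted p 0.0355) and with array weights (-0.88, adjusted p 0.0156).

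Of 16 transcripts that ERK is known to drive, 6 were called lower at 24 h with AMH and 10 in controls, and none was called higher in either arm, where 3.94% of all genes were called lower with AMH and 9.19% in controls. The median change was -0.72 with AMH and -1.12 in controls, beside -0.02 and -0.01 for all genes in those arms. Egr3, a zinc-finger transcription factor, changed by -2.40 with AMH (SE 0.48, adjusted p 0.00614) and by -3.00 in controls (SE 0.48, adjusted p 0.000645). Fosl1, an AP-1 subunit, changed by -2.25 with AMH (adjusted p 0.00165) and by -2.46 in controls (adjusted p 0.000391). Errfi1, an inhibitor of the EGF receptor, changed by -1.29 with AMH (SE 0.17, adjusted p 0.000436) and by -1.42 in controls (SE 0.17, adjusted p 9.6e-05). Phlda1 changed by -1.24 with AMH (SE 0.29, adjusted p 0.0164), a call lost without AMH 12 h replicate 3 (adjusted p 0.0607) or replicate 4 (adjusted p 0.0510). Egr2 changed by -1.86 in controls (adjusted p 0.0011). Hbegf stands in this list as well as among the ligands, and the list was written with earlier results of these arrays known.

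**Figure D4:**
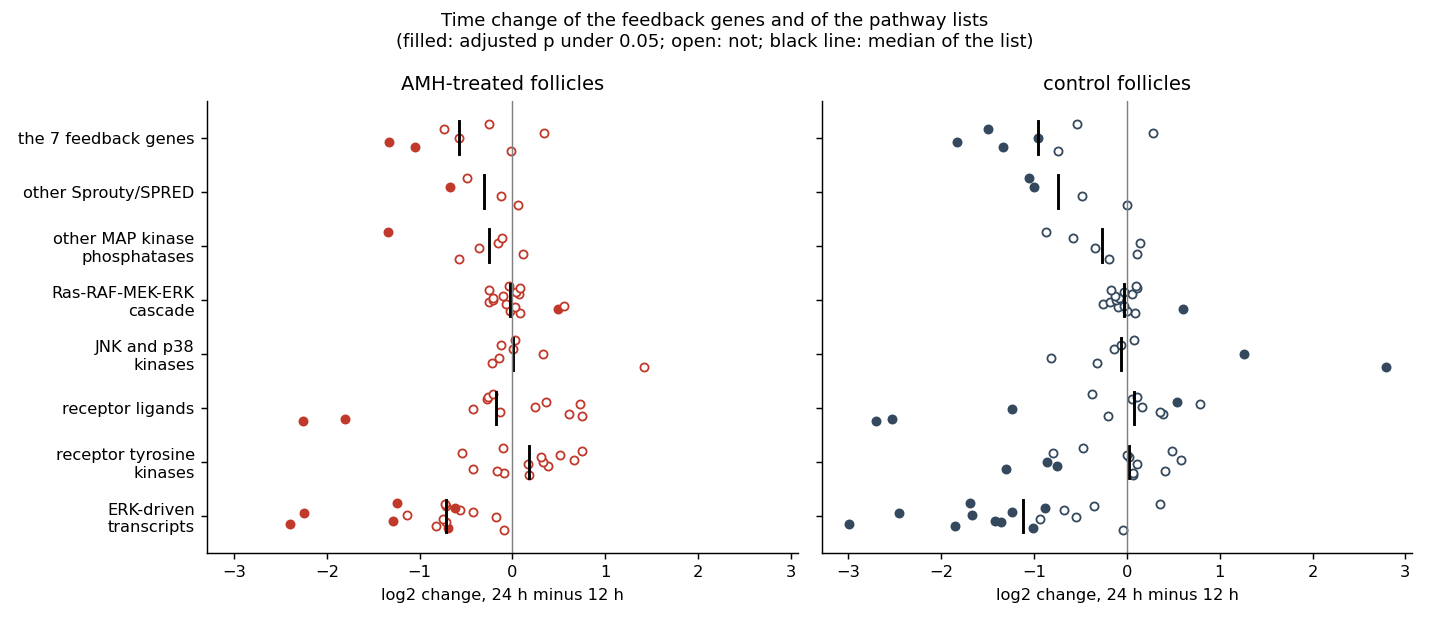
The x axis gives the log2 change between 24 h and 12 h, with AMH-treated follicles in the left panel and control follicles in the right, for each gene of the 7 feedback genes and of 7 pathway lists. Filled points have an adjusted p under 0.05 and the black line is the list's median, which is -0.72 with AMH and -1.12 in controls for the ERK-driven transcripts and near 0 for the kinase cascade.

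Between AMH and control, no gene of any pathway list was called at 12 h, at 24 h, on the mean of the times or on their difference. The AMH effect at 24 h minus that at 12 h was above 0 for 4 of 4 further inhibitors (median 0.34). It was so for 13 of 16 ERK-driven transcripts (0.30), 11 of 13 receptors (0.27) and 7 of 12 ligands (0.13). Medians were below 0 for the cascade (-0.02, 6 of 15 above 0), JNK and p38 kinases (-0.04, 3 of 7) and other phosphatases (-0.16, 2 of 6). The smallest p of each list belonged to the following genes. Fgf2, a fibroblast growth factor, differed by 0.79 at 24 h (SE 0.14, adjusted p 0.207), by 0.31 on the mean (adjusted p 0.915) and by 0.95 between the effects at 24 h and 12 h (adjusted p 0.319). Fgfr4 differed by 1.12 at 24 h (adjusted p 0.571), Fgfr1 by -0.57 at 12 h (adjusted p 0.561), Fgfr2 by 1.13 between the effects at 24 h and 12 h (adjusted p 0.319, or 0.0494 with array weights, where it was called), Pdgfra by 0.41 on the mean (adjusted p 0.815) and Btc by -0.48 at 12 h (adjusted p 0.767). Mapk10 differed by 1.88 at 12 h (adjusted p 0.368) and by 1.20 on the mean (adjusted p 0.750), and Mapk13 by -0.89 at 24 h (adjusted p 0.813) and by -0.93 between the effects (adjusted p 0.765). Egr1 differed by 0.55 at 24 h (adjusted p 0.986) and by 0.39 on the mean, and Myc by 0.60 at 12 h (adjusted p 0.626) and by -1.08 between the effects (adjusted p 0.420). Among inhibitors and kinases, Dusp10 differed by 0.50 at 12 h, 0.31 on the mean and -0.38 between the effects, Dusp2 by -0.23 at 24 h, Spred1 by -0.20 at 12 h and 0.36 between the effects, and Spred2 by 0.27 at 24 h and 0.11 on the mean. Araf differed by -0.18 at 12 h, at 24 h and on the mean, and Ksr1 by 0.59 between the effects, with adjusted p of 0.669 or above for these inhibitors and kinases.

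Markers of follicular and other ovarian cells also moved with time. Of 10 granulosa markers, 3 were called higher at 24 h with AMH (median change 0.89) and 6 in controls (median 1.04). In each arm 9 of the 10 were above 0. Amh was below it, at -1.56 with AMH (adjusted p 0.0520) and -1.08 in controls (adjusted p 0.121). Of 10 stroma and smooth muscle markers, 3 were called higher with AMH (median 0.92) and 6 in controls (median 0.81). Among all genes, 4.34% were called higher with AMH and 9.96% in controls. The summed signal of the granulosa markers lay between 8669 and 15743 for AMH at 24 h, 8141 and 13982 for the control at 24 h, 3945 and 9259 for AMH at 12 h, and 3143 and 7343 for the control at 12 h. That of the stromal markers lay between 6989 and 10142 for AMH at 24 h, 5754 and 8324 for the control at 24 h, 4102 and 6248 for AMH at 12 h, and 2124 and 5571 for the control at 12 h. None of 15 oocyte genes was called with time in either arm, and among 4 theca markers only Cyp17a1 was, higher with AMH. Called lower at 24 h were none of 9 endothelial markers with AMH and 1 in controls, 1 of 9 immune markers with AMH and 2 in controls, and 2 of 8 surface epithelium markers in each arm. The part of these shifts in the lower signals of the feedback genes was not tested. No marker was listed at 0.

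Oocyte RNA differed between arrays of the same group, and some members were highest on the arrays richest in it. The mean log2 signal of the 15 oocyte genes was 7.83 ± 0.75 for AMH at 24 h, 8.00 ± 0.71 for the control at 24 h, 8.12 ± 0.24 for AMH at 12 h, and 8.30 ± 0.95 for the control at 12 h (SD, n = 4 each). Its summed signal lay between 3250 and 9801 for AMH at 24 h, 4046 and 10377 for the control at 24 h, 5012 and 6988 for AMH at 12 h, and 2840 and 13315 for the control at 12 h. The array with the highest Spry4 signal was the one richest in oocyte transcripts in 4 of 4 groups, and for the other 3 Spry4 probe sets in 3 of 4 groups. For Spry1, Spry2 and Dusp5 it was so in 3 groups, for Dusp4 in 2, for Dusp6 in 1 and for Dusp1 in 0. The lowest arrays matched as often or less often. The array poorest in oocyte transcripts was also lowest in 3 groups for Spry1 and in 2 for Spry4, Dusp4 and Dusp5. For the other Spry4 probe sets it was lowest in 3, 3 and 2 groups. For Spry2 this held in 1 group, or 0 by its second probe set, and for Dusp1 and Dusp6 in 0. How often such matches occur over all genes was not computed. With the oocyte mean as a covariate, and likewise without the oocyte-rich arrays at 24 h, the same numbers of members were called with time, 2 with AMH and 4 in controls. Spry4 in controls changed with time by -0.36 with the covariate (adjusted p 0.322) and by -0.77 without the oocyte-rich arrays (adjusted p 0.125).

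**Figure D5:**
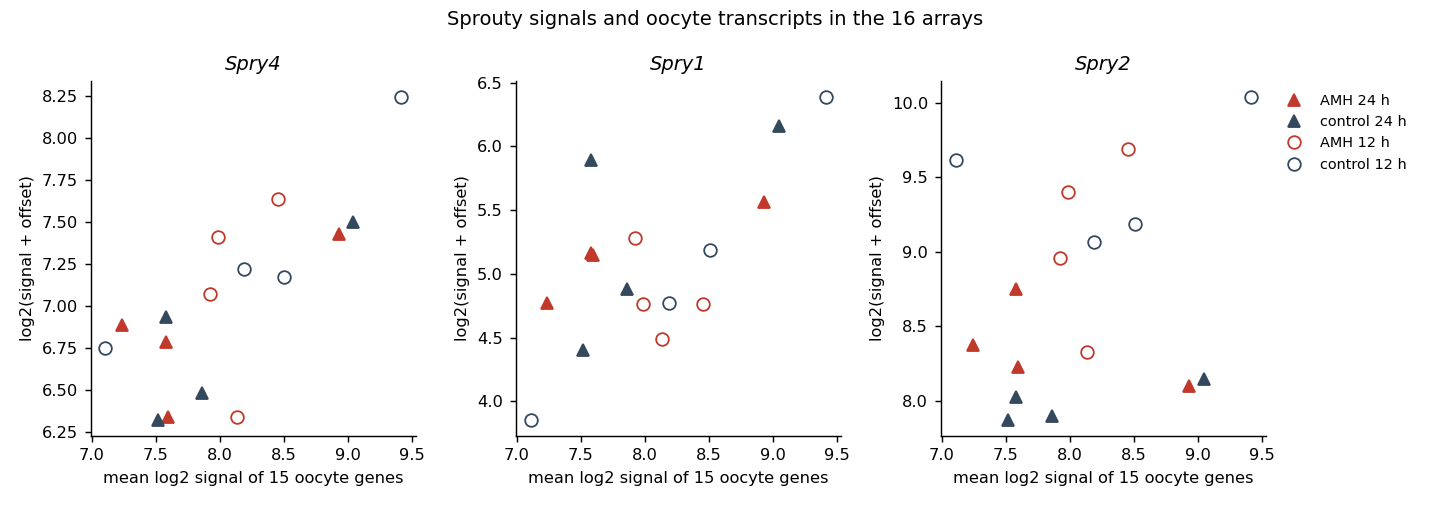
Each panel plots log2(signal + 1.46) of a Sprouty gene (y axis) against the mean log2 signal of 15 oocyte genes (x axis) on the 16 arrays. Spry4 is highest on the oocyte-richest array of each group, while the Spry2 signals of all 24 h arrays lie below those of 7 of the 8 arrays at 12 h.

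The members resembled one another to different degrees across the 16 arrays. Likeness was measured as the root-mean-square difference of log2 signals after centring each gene on its mean, as a description with no test. The closest pairs were Dusp4 and Spry2 (0.31), Dusp4 and Dusp5 (0.35) and Dusp5 and Spry2 (0.35), and the farthest was Dusp5 and Spry1 (1.09). A gene's own root-mean-square spread was 0.92 for Dusp5, 0.69 for Dusp4, 0.68 for Spry2, 0.64 for Spry1, 0.52 for Dusp6 and Spry4, and 0.47 for Dusp1. Of all other genes, the nearest to Dusp5 were Phlda1 (0.15) and Zfp365 (0.28), and the nearest to Spry2 were Sat1 (0.20) and Srgn (0.22). Dusp4 was nearest to Cgref1 (0.23) and Plk3 (0.25), and Dusp6 to Cemip2 (0.25) and Yrdc (0.27). Dusp1 was nearest to Rassf7 (0.29) and Atp1b1 (0.30), a large difference beside its own spread. Spry4 was nearest to Clip2 (0.24) and Mphosph6 (0.28), and Spry1 to Fam13c (0.32) and Cecr2 (0.34).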

How the data were processed

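RNA (5 ng per sample) was amplified, labelled and hybridised to 16 arrays. The deposited values are linear signal intensities per probe set, made by the authors with MAS5 per the submitters' processing notes, and its version is not given in the sources used here. Signals were turned into log2(signal + 1.46), the offset being the 10th percentile of the signals. The arrays carry 45101 probe sets, among them 64 controls, 34945 with 1 gene symbol, 932 with several and 9160 with none. A mean log2 at or above the 40th percentile (4.18, a signal of 16.6) was required, and each gene was read from its probe set of highest mean.

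Models were fitted with limma 3.58.1 (R 4.3.3) with a mean-variance trend, and Benjamini-Hochberg adjusted p-values under 0.05 were called. AMH was compared with control in a fit of all 16 arrays with the 8 pairs as a block, as the labels state that such samples are pairwise comparable. As a check, what paired arrays departed from their group means by correlated at 0.299, 0.349, 0.560 and 0.214 at 12 h, and at -0.437, 0.327, 0.200 and -0.287 at 24 h. Times were compared in an unblocked fit of the 4 group means, since no label says that pools were shared across times. Whether replicates shared animals beyond that is not stated. P-values of AMH against control measure how the differences within pairs vary. Those between times measure the spread between arrays of the same group.

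The members and lists were chosen with earlier results of these data known. Named genes are the 7 members, up to 4 genes per list and comparison with the smallest p among those called (otherwise the gene with the smallest p), and for each member the 2 genes of most similar profile. Genes named for markers, and list genes given in a comparison other than the one that named them, were picked with their values in view. In simulated data with 200 of 12172 genes changed, 82% to 97% of genes changed by a log2 of 2 and 37% to 83% of those changed by a log2 of 1 were recovered per comparison. Of the genes called there, 4% to 9.09% were unchanged ones. The noise was drawn independently for each gene, so shifts shared by many genes of an array were not simulated. Alternatives changed the offset, filter, scaling, probe set handling, array weights, block and arrays used. For AMH against control, both arrays of pairs 1 and 4 at 24 h were left out, as each pair holds an oocyte-rich array. Between times, only the oocyte-rich array of each arm at 24 h was left out. Plots used matplotlib 3.10.9 (Python 3.11.15).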

Additional observations from a re-analysis of the deposited data

Results flagged for a closer look

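Dusp6 in AMH-treated follicles at 24 h had an array far from the other 3: replicate 1 gave a log2 signal of 7.80, against 8.50 to 8.62 in the other replicates, and the gap took up 0.853 of the group's range. It was the only group of 4 so marked among the 44 examined (11 probe sets in 4 groups), where chance marks about 1 group in 20. This array was also the richest in oocyte transcripts at 24 h in its arm, and the part of that in its Dusp6 signal was not tested.

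Spry2, read from its probe set of higher mean, was above control with AMH in every pair at 24 h and below it in every pair at 12 h. The difference of 0.76 between the 2 effects was tested in the limma fit across all genes and did not pass (adjusted p 0.333). The second Spry2 probe set was above control in 4 of 4 pairs at 24 h and in 1 of 4 at 12 h, with a difference of 0.44 (adjusted p 0.805).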

How the results depend on the processing

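With AMH 2 of the 7 feedback genes were called lower at 24 h, and between 0 and 3 with each array left out, 0 being reached without AMH 24 h replicate 2 or AMH 12 h replicate 3. In control follicles 4 of the 7 were called lower, and between 4 and 5 under the alternatives run. With the replicate number as a block, Spry2 was called in the AMH arm (-0.73, adjusted p 0.0312), which gave 3 members there and 4 in controls. No member was called between AMH and control under any alternative run. Of 708 alternative values of members, 661 kept their sign and their side of the threshold, 10 gained a call, 6 lost one and 31 changed sign, all of the last where no call had been made. Spry1 has no value under the filter at the 60th percentile.

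Counts over all genes moved more. Between 24 h and 12 h with AMH 1008 genes were called, 567 with arrays centred on their medians, 1857 with array weights and 516 to 948 with an array left out. In controls 2330 were called, 3945 with array weights and 1705 to 2189 with an array left out. Centring moved the median of all genes to -0.19 between times in controls and to 0.12 for AMH at 24 h, and the share of higher genes among those called in controls to 24.5%, against 52.0% without it. Relative to that median, the control changes were -1.32 for Dusp4, -1.81 for Dusp5, -0.94 for Dusp6 and -1.48 for Spry2. For AMH at 12 h, where 0 genes were called, quantile normalization and testing every probe set gave 1 each, array weights 3, the oocyte covariate 2, and leaving out the 24 h pairs with an oocyte-rich array 6. For AMH at 24 h, where 2 were called, array weights gave 7, while no filter, quantile normalization, every probe set, the mean of probe sets, no replicate block and only the arrays compared gave 0, and leaving out a replicate 0 to 1. On the mean of times (0), array weights gave 6, leaving out the 24 h pairs with an oocyte-rich array 6 and leaving out a replicate 0 to 1. On the difference of effects (0), quantile normalization gave 1, array weights 21, the covariate 2 and leaving out a replicate 0 to 1.

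The uncalled AMH differences that changed sign did so as follows, and the cause was not tested. Spry2 on the mean was 0.038 with centring, Araf at 12 h was 0.090 with the mean of probe sets, and Spry4 on the mean was 0.010 with the covariate. With array weights Spry4 at 24 h was -0.15, Dusp2 at 24 h was 0.20 and Spry1 in the difference of effects was -0.15. Without the 24 h pairs that hold an oocyte-rich array, pairs 1 and 4, Spry4 at 24 h was -0.016 and Dusp2 was 0.38. With a replicate left out, values at 12 h ran from -0.14 to 0.039 for Dusp1, -0.17 to 0.26 for Dusp4, -0.45 to 0.048 for Dusp6 and -0.61 to 0.24 for Spry1. Those at 24 h ran from -0.46 to 0.10 for Spry1, -0.25 to 0.30 for Spry4 and -0.48 to 0.080 for Dusp2. On the mean they ran from -0.19 to 0.054 for Dusp5, -0.024 to 0.19 for Dusp6, -0.40 to 0.13 for Spry1, -0.068 to 0.035 for Spry2 and -0.26 to 0.080 for Spry4. In the difference of effects they ran from -0.0099 to 0.52 for Dusp4, -0.22 to 0.70 for Spry1 and -0.10 to 0.83 for Spry4. Between times, Dusp1 with AMH ran from -0.25 to 0.12 and Spry1 in controls from -0.11 to 0.73.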
